A study of Mus musculus with 8 samples.

Results

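The control of multiciliated cell formation was followed through 10 mouse genes, chosen by name from the 54532 genes counted in each library: the coiled-coil regulators Gmnc and Mcidas, the transcription factors Trp73, Myb, Foxj1, Rfx2 and Rfx3, and the centriole amplification genes Ccno, Deup1 and Ccdc78. All 10 were measured, and all 10 were among the 17138 genes that passed the filter on low counts. Whole lungs of CC-LR mice were sequenced as poly(A) RNA, with 1 library per mouse, 4 control mice and 4 mice given TTI-101. CC-LR mice carry CCSP-Cre and LSL-K-rasG12D, so that Cre driven by the club cell secretory protein gene turns on the oncogenic K-ras allele in club cells and their descendants, and both groups carried these alleles. All mice were taken at 14 weeks of age. TTI-101, a small-molecule inhibitor of STAT3, was given for the last 4 weeks. The labels do not state the vehicle, the route of delivery or the sex for each of these libraries.

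Multiciliated cells line the conducting airways and move mucus by the beating of many motile cilia, each of which grows from a centriole-derived basal body. A progenitor released from Notch signaling turns on Gmnc and then Mcidas, geminin family proteins that work with E2F4 or E2F5 and DP1 and induce Trp73, Myb, Foxj1 and RFX factors. Ccno and Deup1 then serve the making of many centrioles at once from deuterosomes, and Foxj1 and the RFX factors turn on the genes of the motile axoneme. In normal lung the program is read from a minority of airway cells, so that a whole lung library holds it diluted among alveolar, vascular and blood cells. Fewer ciliated cells and less of a transcript in each ciliated cell cannot be told apart in such libraries.

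RFX factors bind the X-box, whose core half-site GTTGCC was searched on both strands in the RefSeq promoters of GRCm38.p6, which span 250 bases before to 50 bases after each gene's start. The half-site was in 12.5% of 32851 promoter windows and in the promoters of 14.1% of genes. Of the 9 regulators with a promoter in that table, 7 had it. Those stretches are shown because they place a candidate RFX motif at the regulators themselves, Rfx2 and Rfx3 included. Each is written 5′ to 3′ on the gene's strand with the half-site, or its reverse complement, in capitals. All starts in these lines are RefSeq starts, which can differ from the gene ends in the deposited annotation given further on. The half-sites of Deup1, Rfx3 and Trp73 lie within the gene's span in that annotation.
Ccno, chr13:112987553-112987618 (plus strand), half-site 219 bases before the start: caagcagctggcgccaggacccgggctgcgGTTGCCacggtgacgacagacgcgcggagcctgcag
Mcidas, chr13:112993643-112993708 (plus strand), half-site 195 bases before the start: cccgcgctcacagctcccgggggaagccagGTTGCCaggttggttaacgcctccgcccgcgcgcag
Rfx2, chr17:56831089-56831154 (minus strand), half-site 116 bases before the start: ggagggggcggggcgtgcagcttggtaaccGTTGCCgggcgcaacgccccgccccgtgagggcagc
Deup1, chr9:15627908-15627937 (minus strand), half-site 79 bases before the RefSeq start: ccgcgtctccatGGCAACccactgggaacc
Ccdc78, chr17:25786535-25786579 (plus strand), half-site 15 bases before the start: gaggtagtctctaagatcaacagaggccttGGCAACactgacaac
Rfx3, chr19:28011118-28011147 (minus strand), half-site from base 32 after the start: gttatagcaaccGTTGCCttgtgaatcaag
Trp73, chr4:154139856-154139885 (minus strand), half-site from base 3 after the start: tccaggcgaggaGGCAACgctgcagcccag
Gmnc and Myb had no half-site in their windows, and Foxj1 was not matched in the table. The forkhead motif TGTTTAC was in 3.65% of windows and, among the regulators, in that of Myb. The E2F letters TTGGCGC or TTCCCGC were in 6.81% of windows and in those of Deup1 and Trp73. A match of letters is a description of the window and not a measured binding site.

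Total counts were between 16446481 and 26873509 in control and between 16075855 and 25920509 in TTI-101-treated libraries. The library of control mouse 4 stood apart from the others. It had 5.56% of its counts on mitochondrial genes against 2.44% to 2.85% in the other control libraries and 2.01% to 2.84% in the treated ones, and on the first principal component of log2 CPM, which held 45.2% of the variance, it lay at 101 against -39.3 to 17.9 for the other 7. It was also the highest control for 7 of the 10 regulators, and TTI-101-treated mouse 2 was the highest treated mouse for 8, so the fold changes of the regulators, and the counts of calls, are given with and without these libraries. Levels are counts scaled by TMM to a common library size (CPM), and fold changes are TTI-101 over control.

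The 10 regulators were lower on average in TTI-101-treated lungs, but none passed the test across all genes. The fitted log2 fold change was below 0 for 10 of 10, against 49.4% of the 17138 genes tested, with a median of -0.68 against 0.00 for all genes tested. Because most of these genes ran together from mouse to mouse, the 10 are not 10 independent observations. The quasi-likelihood test of edgeR gave no regulator an adjusted p under 0.05 (0 of 10), and it gave none to any other gene (0% of the genes tested). At an unadjusted p under 0.05 edgeR called 4 of 10 lower, Mcidas, Deup1, Gmnc and Myb, against a background of 3.58% of the genes tested. DESeq2 called 4 at that level, against 2.69% of its 31769 genes, and limma-voom called 3, against 2.85%. DESeq2 called 4 genes in all at an adjusted p under 0.05, none of them a regulator, and limma-voom called 0. No regulator had all 4 treated mice below all 4 control mice, where 1.43% of the genes tested did. The lowest exact permutation p of any regulator's level was 0.0571, and the smallest that 4 mice against 4 allow is 0.0286.

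**Figure D1:**
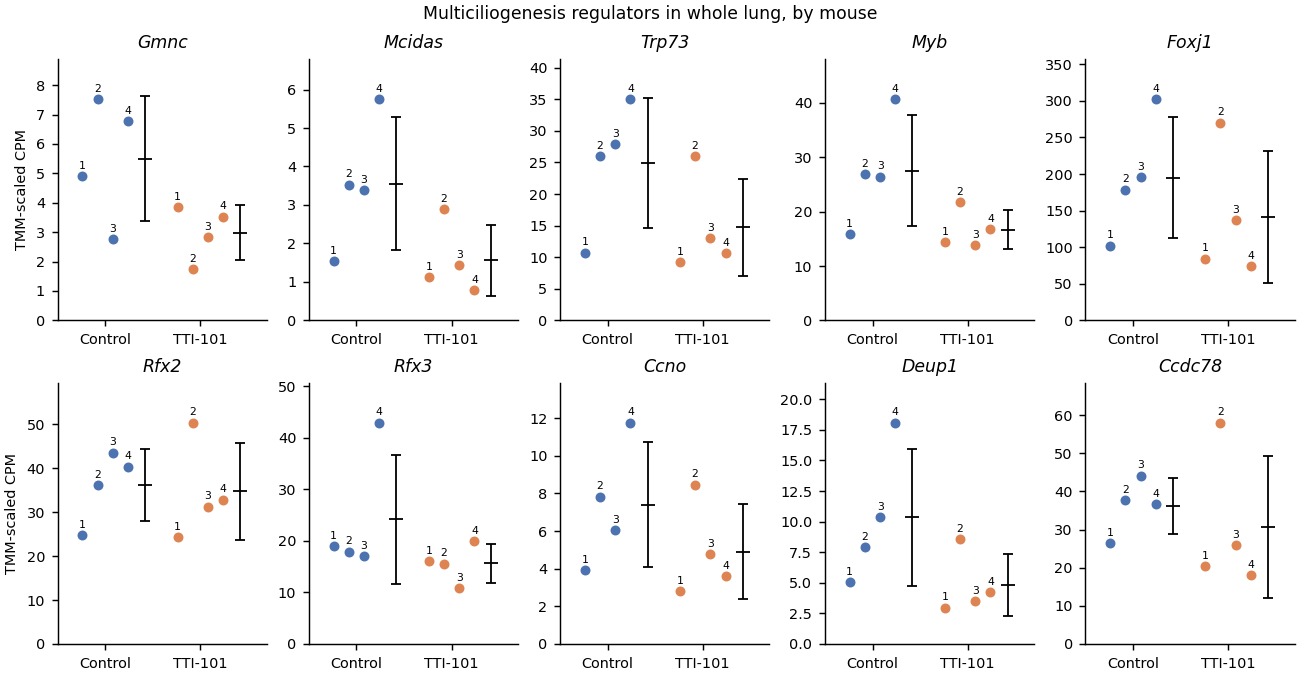
TMM-scaled CPM of each regulator in each mouse, with mouse numbers beside the points and the mean and SD of the 4 mice of each group in black. Control mouse 4 tops the control group for 7 genes, TTI-101-treated mouse 2 tops the treated group for 8, and the groups overlap for all 10.

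Gmnc (ENSMUSG00000068428, chr16:26913553-26991652, minus strand), which encodes GEMC1, acts at the top of the program. It was at 4.92, 7.53, 2.77 and 6.78 CPM in control mice 1 to 4 and at 3.84, 1.74, 2.84 and 3.53 CPM in TTI-101-treated mice 1 to 4. Control mice 1, 2 and 4 lay above all treated mice, and control mouse 3 lay among them. The mean was 1.83-fold lower with TTI-101 (5.50 ± 2.12 against 2.99 ± 0.931 CPM, SD, n = 4), with a log2 fold change of -0.87 (SE 0.36) and an adjusted p of 0.657 in edgeR. Leaving out control mouse 4 gave -0.74, leaving out TTI-101-treated mouse 2 gave -0.67, and neither had an unadjusted p under 0.05 in edgeR. Counts were 29 to 134 a library. Gmnc was lowest in TTI-101-treated mouse 2, where Mcidas, Myb and Deup1 were at their treated maximum.

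Mcidas (ENSMUSG00000074651, chr13:112993845-113000394, plus strand) encodes multicilin, which binds E2F4 or E2F5 and starts centriole amplification. Its levels were 1.54, 3.53, 3.38 and 5.76 CPM in the control mice and 1.13, 2.88, 1.44 and 0.791 CPM in the treated mice. Control mouse 1 was within the treated range, and TTI-101-treated mouse 2 was within the control range. Mcidas had the lowest fold change of the 10, 2.27-fold lower on means of 3.55 ± 1.73 and 1.56 ± 0.920 CPM (SD, n = 4), a log2 fold change of -1.18 (SE 0.49). The adjusted p was 0.657 in edgeR and 0.842 in DESeq2, at 13 to 90 counts a library. It was -0.84 when control mouse 4 was left out and -1.64 when TTI-101-treated mouse 2 was.

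The cofactors of Gmnc and Mcidas differed less. E2f5 had means of 19.7 and 16.6 CPM (log2 fold change -0.25, SE 0.16), E2f4 58.9 and 68.6 CPM (0.22, SE 0.16), and Tfdp1, which encodes DP1, 45.8 and 41.5 CPM (-0.14, SE 0.12), in control and treated mice. Geminin (Gmnn), the replication licensing inhibitor that binds both, had means of 12.7 ± 2.32 and 11.3 ± 3.45 CPM (SD, n = 4). Of the 8 E2F, DP, pocket protein and geminin genes, 4 were lower and 4 higher, none at an unadjusted p under 0.05 in edgeR, with a median log2 fold change of 0.02.

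Trp73 (ENSMUSG00000029026, chr4:154056253-154140208, minus strand) encodes p73, a p53 family factor needed for airway cilia. In the control mice it was at 10.7, 26.1, 27.9 and 35.0 CPM, and in the treated mice at 9.20, 26.1, 13.0 and 10.6 CPM. TTI-101-treated mouse 2 matched control mouse 2, and treated mice 1 and 4 were below every control. The log2 fold change was -0.76 (SE 0.40, adjusted p = 0.657 in edgeR). The estimate rested on which mice were used, being -0.54 with control mouse 4 left out (unadjusted p = 0.210 in edgeR) and -1.18 with TTI-101-treated mouse 2 left out (unadjusted p = 0.00776 in edgeR).

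Myb (ENSMUSG00000019982, chr10:21124935-21160984, minus strand), the factor also known from blood progenitors, acts early in multiciliated cells and drives centriole amplification. Control mice were at 15.9, 26.96, 26.5 and 40.7 CPM and treated mice at 14.4, 21.7, 13.8 and 16.8 CPM. The treated mice spanned a narrower range, within which control mouse 1 fell. The mean was 1.65-fold lower with TTI-101 (27.5 ± 10.2 against 16.7 ± 3.60 CPM, SD, n = 4) and the log2 fold change was -0.72 (SE 0.27, unadjusted p = 0.0230 and adjusted p = 0.657 in edgeR). It was -0.46 with control mouse 4 left out (unadjusted p = 0.0803 in edgeR) and -0.86 with TTI-101-treated mouse 2 left out. Of the 7 genes listed as hematopoietic progenitor markers, 4 were tested, and 0 were called at an unadjusted p under 0.05 in edgeR. Gata2, Kit and Cd34 had higher values with TTI-101, and the other 1 tested was lower. Elane, Mpo and Gfi1b had 0 counts in at least 1 library and no more than 18. Which cells gave the Gata2, Kit and Cd34 transcripts was not tested, so the list is no measure of blood progenitors here. Proliferation markers were lower for 8 of 8, 5 at an unadjusted p under 0.05 in edgeR, where 3.58% of the genes tested were called lower. With control mouse 4 left out 7 were lower and 1 was called (1.11% of all genes tested). With TTI-101-treated mouse 2 left out 8 were lower and 5 were called (7.62%). The summed level of these markers was 65.3 to 145 CPM in control and 45.7 to 74.3 CPM in treated mice. The part of dividing or blood cells in the Myb values was not tested.

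Foxj1 (ENSMUSG00000034227, chr11:116330704-116335399, minus strand) is the forkhead factor that turns on motile cilium genes and the standard nuclear marker of ciliated cells. Its levels were 102, 179, 196 and 303 CPM in the control mice and 84.3, 270, 137 and 74.0 CPM in the treated mice. TTI-101-treated mouse 2 exceeded 3 of the 4 controls, mouse 3 exceeded control mouse 1, and treated mice 1 and 4 were below every control. The means were 195 ± 82.6 and 141 ± 90.3 CPM (SD, n = 4), with a log2 fold change of -0.46 (SE 0.42, adjusted p = 0.746 in edgeR), well within the spread between mice. It was -0.16 without control mouse 4 and -0.98 without TTI-101-treated mouse 2.

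Rfx2 (ENSMUSG00000024206, chr17:56775897-56831013, minus strand) encodes an X-box factor that works with FOXJ1. Its values were 24.8, 36.1, 43.6 and 40.4 CPM in the control mice and 24.3, 50.4, 31.3 and 32.9 CPM in the treated mice, so the ranges were nearly the same. The log2 fold change was -0.06 (SE 0.24), the nearest to 0 of the 10, and it was 0.01 without control mouse 4 and -0.28 without TTI-101-treated mouse 2.

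Rfx3 (ENSMUSG00000040929, chr19:27761721-28011166, minus strand), the other X-box factor, is expressed in cells with primary cilia as well as in multiciliated cells. It was at 18.9, 17.9, 17.0 and 43.0 CPM in the control mice and at 16.0, 15.6, 10.8 and 20.0 CPM in the treated mice. Most of the difference of the means came with control mouse 4: the log2 fold change was -0.63 (SE 0.32, adjusted p = 0.657 in edgeR) with it and -0.19 without it, and -0.62 with TTI-101-treated mouse 2 left out. Of the 8 other RFX family genes, 5 were tested, 2 lower and 3 higher, with a median log2 fold change of 0.04, and Rfx6 had 0 counts in all libraries.

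Ccno (ENSMUSG00000042417, chr13:112987802-112990777, plus strand) encodes a cyclin-like protein needed for deuterosome-based centriole production. Its gene ends 3068 bases before Mcidas on the same strand. Ccno was at 3.92, 7.83, 6.05 and 11.8 CPM in the control mice and at 2.79, 8.47, 4.78 and 3.59 CPM in the treated mice. The mice ranked much as they did for Foxj1, with control mouse 4 and TTI-101-treated mouse 2 highest. The log2 fold change was -0.59 (SE 0.41, adjusted p = 0.684 in edgeR), against -1.18 for its neighbour Mcidas, and the difference between these neighbours was not tested. Ccno was at -0.27 with control mouse 4 left out and at -0.98 with TTI-101-treated mouse 2 left out (unadjusted p = 0.0294 in edgeR). Cdc20b, which lies in the same cluster on chromosome 13, had means of 1.73 ± 0.623 and 1.14 ± 0.891 CPM (SD, n = 4; log2 fold change -0.61, SE 0.53).

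Deup1 (ENSMUSG00000039977, chr9:15559864-15627933, minus strand) encodes the structural protein of the deuterosome. Control mice were at 5.06, 7.89, 10.4 and 18.1 CPM, and treated mice at 2.98, 8.59, 3.50 and 4.26 CPM. Treated mice 1, 3 and 4 were below all controls, and TTI-101-treated mouse 2 was above controls 1 and 2. The mean was 2.14-fold lower (10.4 ± 5.60 against 4.83 ± 2.56 CPM, SD, n = 4), with a log2 fold change of -1.10 (SE 0.44, unadjusted p = 0.0299 and adjusted p = 0.657 in edgeR). It was -1.52 with TTI-101-treated mouse 2 left out, and -0.68 with control mouse 4 left out (unadjusted p = 0.112 in edgeR).

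Ccdc78 (ENSMUSG00000071202, chr17:25786580-25790513, plus strand) encodes a coiled-coil protein placed at sites of centriole amplification. The values were 26.5, 37.7, 44.2 and 36.6 CPM in the control mice and 20.4, 58.1, 25.9 and 18.0 CPM in the treated mice. TTI-101-treated mouse 2 held the highest level of all mice, and the other treated mice held the lowest. The log2 fold change was -0.25 (SE 0.34, adjusted p = 0.837 in edgeR) over all mice, -0.75 (SE 0.21, unadjusted p = 0.00470 in edgeR) without that mouse and -0.23 with control mouse 4 left out. The gene overlaps Fam173a on the opposite strand by 6 bases.

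**Figure D2:**
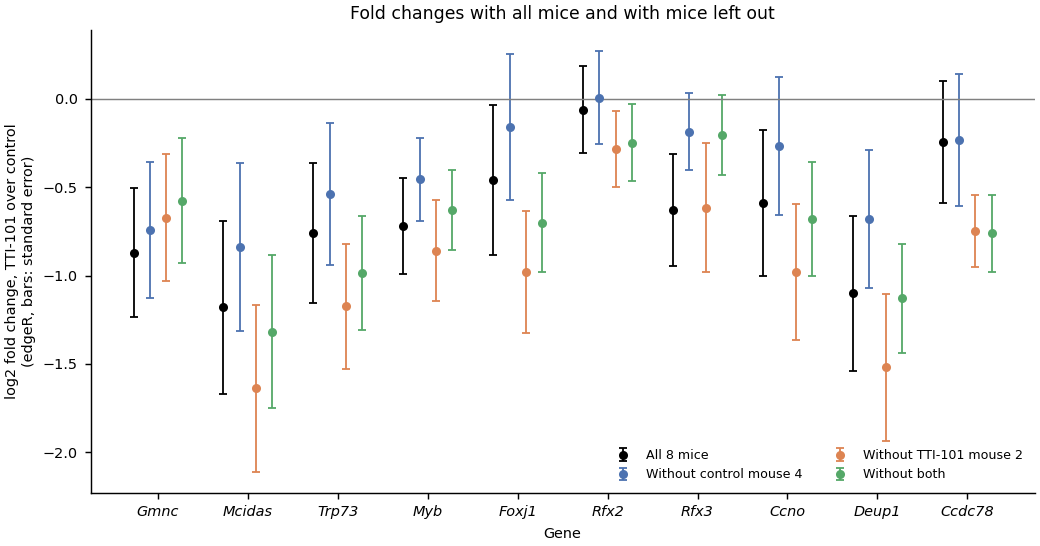
log2 fold change of each regulator from edgeR, with its standard error, in black for all 8 mice, in blue with control mouse 4 left out, in orange with TTI-101-treated mouse 2 left out and in green with both left out. Values move toward 0 or stay without the control mouse and move away from 0 without the treated mouse for all but Gmnc and Rfx3; Rfx2 is the closest to 0 with all mice.

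The number of regulators called at an unadjusted p under 0.05 in edgeR depended on which mice were used, these 2 among them. It was 0 without control mouse 4, where 1.11% of the genes tested were called lower, and 7 without TTI-101-treated mouse 2, where 7.62% were. The 7 were Foxj1, Mcidas, Ccno, Myb, Trp73, Ccdc78 and Deup1. Without both mice it was 6, against 6.56% of the genes tested, and the median log2 fold change was -0.69. With either or both of them left out, no regulator had an adjusted p under 0.05 in edgeR. Leaving out TTI-101-treated mouse 3 instead also gave 0 unadjusted calls, where 1.39% of the genes tested were called lower.

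To compare the genes with each other, CPM was divided by gene length. Foxj1 was the highest in control mice at 74.3 ± 31.5 CPM per kb (SD, n = 4), followed by Ccdc78 at 22.0 ± 4.41 and Rfx2 at 4.96 ± 1.12 CPM per kb. These steps were larger than the spread, since the ranges of 38.9 to 115, 16.1 to 26.8 and 3.40 to 5.96 CPM per kb did not overlap. From Rfx2 down each gene overlapped the next. Trp73 was at 4.51 ± 1.85, Deup1 at 3.13 ± 1.69, Myb at 3.08 ± 1.14, Ccno at 2.89 ± 1.30 and Rfx3 at 2.19 ± 1.14 CPM per kb. The top regulators of the cascade were the lowest in level, Mcidas at 1.49 ± 0.726 and Gmnc at 0.958 ± 0.370 CPM per kb. In treated mice Foxj1 was again the highest, at 53.9 CPM per kb, and Gmnc the lowest, at 0.520 CPM per kb.

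**Figure D3:**
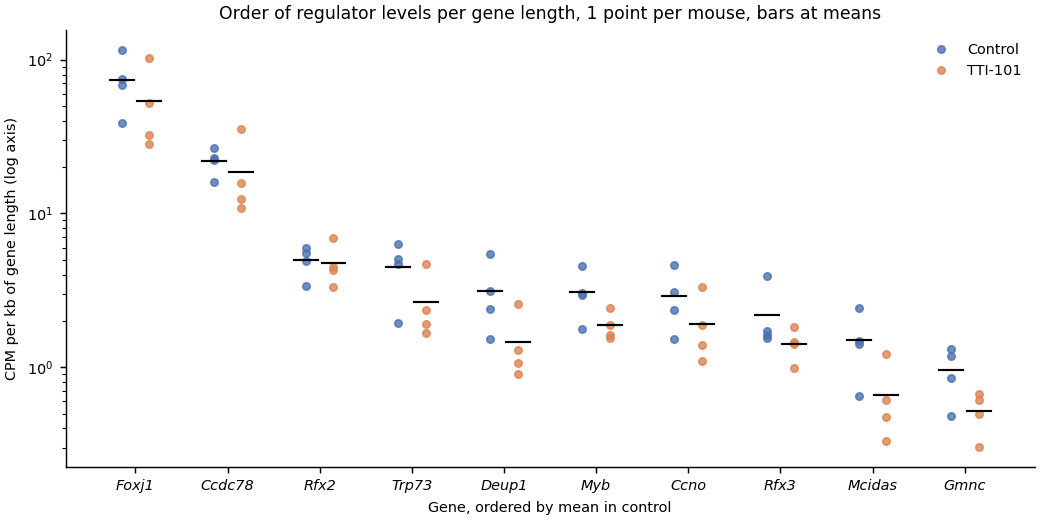
CPM per kb of gene length for each regulator on a log axis, 1 point per mouse, with bars at the means of control and TTI-101-treated mice. The ranges of Foxj1, Ccdc78 and Rfx2 do not overlap each other in the control mice, and from Rfx2 down each gene overlaps the next.

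Of the other 9 regulators, 7 had a Pearson's r of at least 0.80 with Foxj1 over the mice, as had 9.35% of all other genes tested, and Gmnc and Rfx3 had not. Over the 8 libraries, with both groups pooled, this r of log2 CPM was 0.95 for Ccno, 0.94 for Trp73, 0.93 for Mcidas, 0.90 for Ccdc78, 0.86 for Deup1, 0.82 for Rfx2 and 0.80 for Myb. For Rfx3 it was 0.37 and for Gmnc -0.02. Genes of other epithelial cells reached such values as well, among them Scgb3a2 of club cells (r = 0.94) and Sftpc of alveolar type 2 cells (r = 0.88). The mean log2 CPM of 11 ciliated cell markers ran the same way as Foxj1. It was 5.32, 6.06, 6.30 and 6.62 in control mice 1 to 4 and 5.18, 6.26, 5.35 and 5.04 in TTI-101-treated mice 1 to 4. These points share libraries and their depth, and the values are descriptive. Among 13816 genes with a mean of at least 50 counts, those most like Foxj1 over the 8 libraries were Dhrs7b (r = 0.997), Micall2 (r = 0.995), Tctex1d4 (r = 0.991), Bok (r = 0.990) and 6820408C15Rik (r = 0.989).

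Since the mice differed in their ciliated cell transcripts, each regulator was set against Foxj1 of the same library, as log2 CPM minus log2 CPM of Foxj1. Mcidas had the lowest difference of these ratios. Its log2 ratio was -5.96, -5.62, -5.81 and -5.69 in the control mice and -6.10, -6.50, -6.47 and -6.37 in the treated mice, so that all 4 treated mice were below all 4 controls. The difference was -0.59 (-5.77 ± 0.15 against -6.36 ± 0.18, SD, n = 4), with an exact two-sided permutation p of 0.0286, the smallest that 70 assignments allow. It was 1 of 9 such ratios, or 1 of 18 with a second reference, and that p is not adjusted for their number. Against the mean of the ciliated cell markers in place of Foxj1 it was -0.53, with the same exact permutation p of 0.0286. The ratio includes a gene with as few as 13 counts in a library. The share of all genes tested whose ratio to Foxj1 separates the groups in this way was not computed.

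Deup1 had the next lowest ratio, at a difference of -0.50 from control (exact permutation p = 0.114), and 3 of 4 treated mice were below all controls. Rfx2 went the other way, 0.48 higher relative to Foxj1 with an exact permutation p of 0.257, and 0.53 higher relative to the ciliated cell markers with an exact permutation p of 0.0286. The other 6 differed by -0.27 to 0.17, with exact permutation p-values of 0.286 to 0.971. In TTI-101-treated mouse 2, where Foxj1 was high, the ratio was the lowest of the treated mice for Gmnc, Mcidas, Myb, Rfx2, Rfx3 and Ccno.

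**Figure D4:**
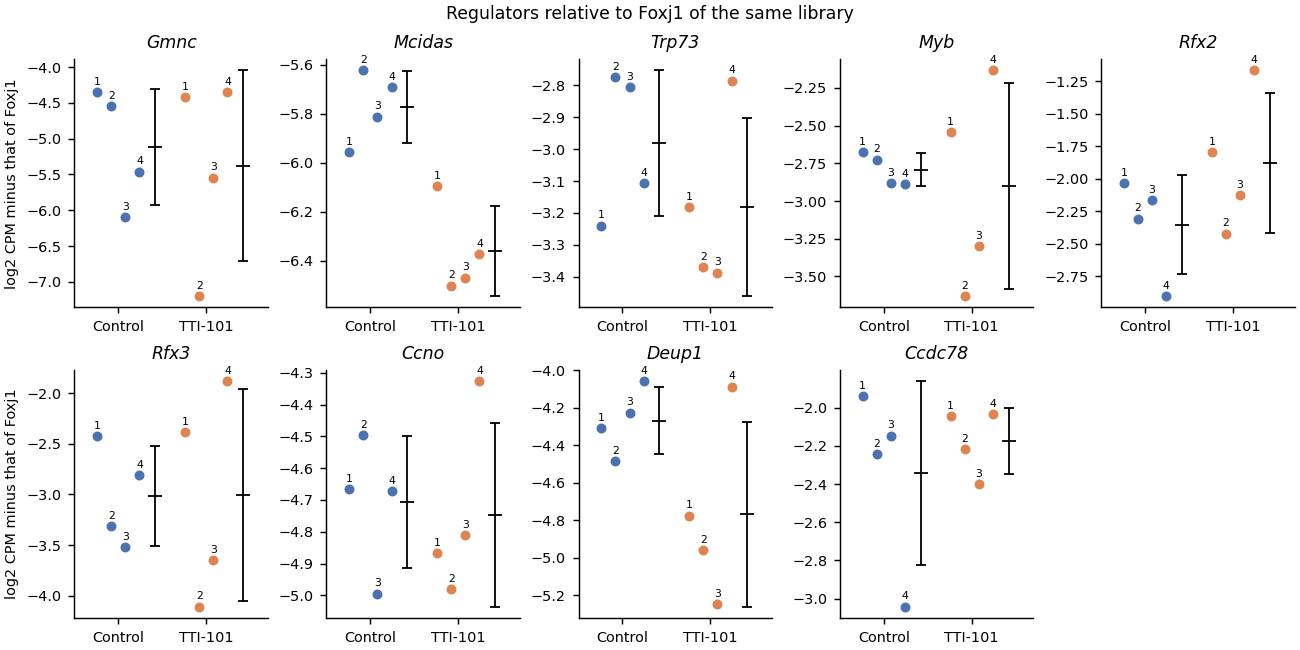
log2 CPM of each regulator minus log2 CPM of Foxj1 in the same library, 1 numbered point per mouse, with the mean and SD of the 4 mice of each group in black. For Mcidas the treated mice lie between -6.50 and -6.10 and the controls between -5.96 and -5.62; the groups overlap for the other 8 genes.

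The steps upstream and downstream of the regulators were described with lists of genes. None of the genes in these lists had an adjusted p under 0.05 in edgeR, so each list is given by its directions and its unadjusted calls, beside a median of 0.00 and shares of 3.58% called lower and 3.02% called higher for all genes tested. Of 13 tested Notch pathway genes, 4 were lower and 9 higher. The Notch ligand Jag1 was lower (log2 fold change -0.74, SE 0.25, unadjusted p = 0.0135 in edgeR), while the receptor Notch3 (0.62, SE 0.20) and the target Heyl (0.42, SE 0.19) were higher at the unadjusted level. Hes5, another Notch target, had at most 5 counts in a library and was not tested.

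Downstream, genes of the motile axoneme were lower for 30 of 30, with a median log2 fold change of -0.69, and 11 were called at an unadjusted p under 0.05 in edgeR. Among them were the radial spoke gene Rsph4a (log2 fold change -1.26, SE 0.36), the axoneme gene Cfap44 (-1.55, SE 0.48) and Ccdc39, which sets the spacing of axonemal arms (-0.87, SE 0.30). Their median was close to that of the regulators, which was -0.68. Genes of centriole assembly in general, which other dividing cells also use, had a median of -0.16, with 17 of 20 lower and 2 called, Stil (-1.08, SE 0.43) and Ccp110 (-0.60, SE 0.25). Plk4, the kinase that starts centriole duplication, was at 7.63 ± 1.54 CPM in control and 6.23 ± 1.29 CPM in treated mice (SD, n = 4). With control mouse 4 left out, 2 of the 30 axoneme genes were called (1.11% of all genes tested), and with TTI-101-treated mouse 2 left out 28 were (7.62%), and 30 of 30 were lower in both fits. The medians were then -0.40 and -1.03. Genes of basal body docking and rootlets were lower for 10 of 10, none at an unadjusted p under 0.05 in edgeR, with a median of -0.32.

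**Figure D5:**
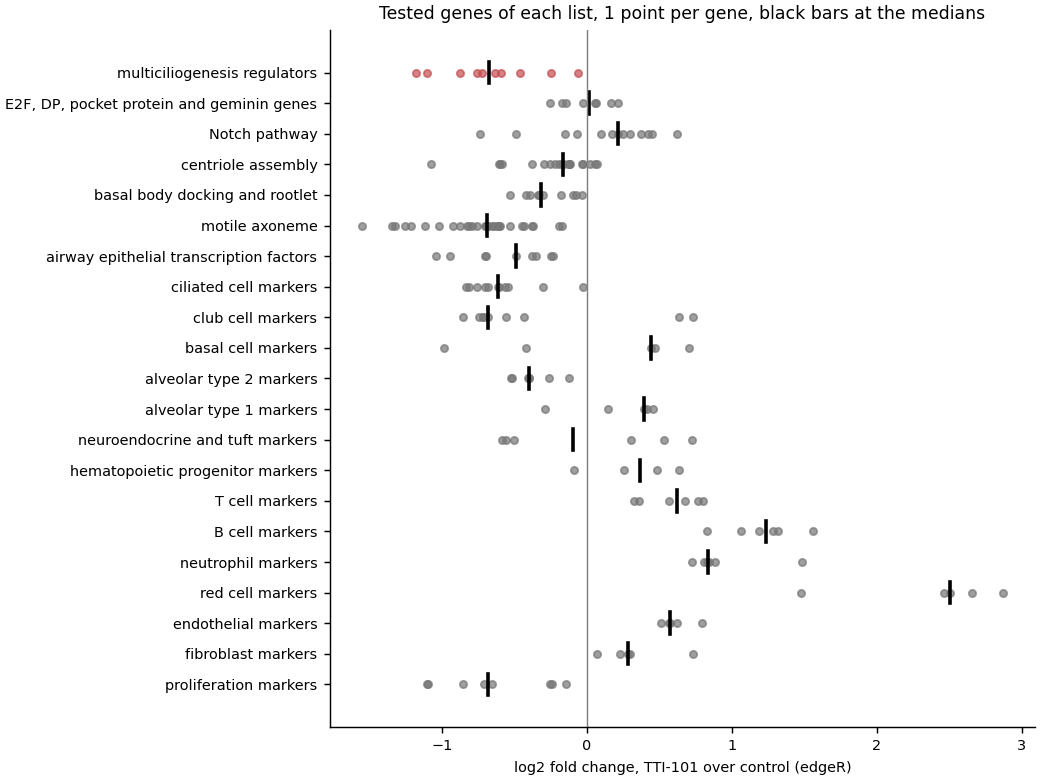
log2 fold change of every tested gene in each list but that of the other RFX family, which is not drawn, 1 point per gene, with black bars at the medians. The 10 regulators, in red, and the 30 motile axoneme genes lie entirely below 0, with medians of -0.68 and -0.69. So do the basal body, airway transcription factor, ciliated cell, alveolar type 2 and proliferation lists. E2F and geminin genes center near 0, and the T cell, B cell, neutrophil and red cell lists lie above it.

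Values of markers of other cells ran in both directions, and none had an adjusted p under 0.05 in edgeR. Ciliated cell markers were lower for 11 of 11, with a median log2 fold change of -0.61 and 1 unadjusted call. Their summed level was 1458 to 2676 CPM in control and 1496 to 1794 CPM in treated mice. Most of that sum was Sec14l3 (means of 1134 and 918 CPM in control and treated mice) and Tppp3 (435 and 427 CPM). Sec14l3 had an r of 0.09 with Foxj1 and Tppp3 1 of 0.88, so the sum says little of the other markers. The unadjusted calls among the ciliated cell markers were 0 with control mouse 4 left out (1.11% of all genes tested called lower) and 9 with TTI-101-treated mouse 2 left out (7.62%). Airway epithelial transcription factors were lower for 9 of 9, 5 at an unadjusted p under 0.05 in edgeR, with a median of -0.49. The calls were 0 with control mouse 4 left out (1.11% of all genes tested) and 7 with TTI-101-treated mouse 2 left out (7.62%). With both left out 6 were called (6.56%). Club cell markers were lower for 7 of 9 with 3 unadjusted calls, at a summed level of 19350 to 46240 CPM in control and 16500 to 34760 CPM in treated mice. Alveolar type 2 markers were lower for 7 of 7 with a median of -0.40, and alveolar type 1 markers higher for 4 of 5 with a median of 0.39. Basal cell markers were higher for 3 of 5 tested, and neuroendocrine and tuft markers were split 3 and 3. None of these 4 lists held an unadjusted call with all mice. The direction of the basal cell markers depended on TTI-101-treated mouse 2. Without that mouse 4 of 5 were lower and 2 were called (7.62% of all genes tested), with a median of -1.17. Without control mouse 4 again 3 of 5 were higher, with a median of 0.05.

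The B cell, red cell, T cell and neutrophil lists lay above 0. B cell markers were higher for 6 of 6 with a median of 1.24 and 6 unadjusted calls. With control mouse 4 left out 6 were also called, where 1.92% of all genes tested were called higher. With TTI-101-treated mouse 2 left out 6 were called as well, against 6.63%. Tested red cell markers were higher for 5 of 5 (median 2.50) with 4 calls, T cell markers for 6 of 6 (0.62) with 1 call and neutrophil markers for 6 of 6 (0.84) with 1 call. Endothelial markers were higher for 5 of 5 (0.57) and fibroblast markers for 5 of 5 (0.28), with 0 calls in either list at an unadjusted p under 0.05 in edgeR. The part of blood cell transcripts in the lower regulator values was not tested.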

How the data were processed

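RNA of cryopreserved whole lungs was made into poly(A) libraries with a stranded kit and sequenced as paired ends by a provider. The submitters' processing notes name STAR, DESeq2 and mm10, without versions; the counting tool and its strand setting are not given in the sources used here. The table deposited by the authors holds raw counts for 54532 Ensembl genes and no normalized values. GENCODE M21 holds 54495 of these identifiers, 53585 of them at the same coordinates.

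Groups were compared with edgeR 4.0.16 in R 4.3.3 (filterByExpr at a minimum count of 10, TMM, robust quasi-likelihood F-tests, Benjamini-Hochberg adjustment over 17138 genes), all 8 libraries entering 1 fit without covariates. The standard errors given with the edgeR fold changes were derived, as the absolute log2 fold change divided by the square root of the F statistic. Log2 CPM used a prior count of 2. Single values were compared by two-sided exact permutation tests over 70 assignments. Each library came from 1 mouse, so p-values measure the spread between mice, with that of library preparation included. The vehicle, route and sex of each mouse are not stated in the labels and did not enter the fit.

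The 10 genes, the 22 gene lists and the tests were chosen with earlier results of these data known. Named were all 10 regulators, E2f4, E2f5, Tfdp1, Gmnn and Cdc20b, up to 3 genes per list in order of p, and the 5 genes most like Foxj1 outside the lists; Plk4 and the genes at or near 0 counts were named after their values were seen. Alternatives were DESeq2 1.42.0, limma-voom (limma 3.58.1), other scalings, filters and prior counts, a replicate block and each library left out; the lists without control mouse 4 or TTI-101-treated mouse 2 were added after seeing the data. Fits were tested on simulated data.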

Additional observations from a re-analysis of the deposited data

Results flagged for a closer look

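The level of Rfx3 in control mouse 4 was far from the other control mice. At a log2 CPM of 5.43 against 4.09 to 4.25, the gap to the next mouse took 0.883 of the range of the 4 control mice, past the 95% critical value of Dixon's test for 4 values. Of 38 groups of 4 libraries tested this way it was the 1 past that value, and chance alone would give 1.9. The log2 fold change of Rfx3 rested on this library, being -0.63 with it and -0.19 without it.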

How the results depend on the processing

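No regulator reached an adjusted p under 0.05 in any of the fits, and the median log2 fold change of the 10 stayed between -0.92 and -0.36 with each library left out in turn. The number of regulators called at an unadjusted p under 0.05 ran from 0 to 7 with single libraries left out, where 1.11% to 7.62% of all genes tested were called lower. It was 0 without TTI-101-treated mouse 3 (1.39% of all genes), 1 without mouse 1 (1.81%) and 2 without mouse 4 of that group (2.10%) or without control mouse 2 (3.53%). The number with no overlap between groups ran from 0 to 3. It was 3 without control mouse 1 (5.33% of all genes), 3 without TTI-101-treated mouse 2 (6.19%) and 3 without control mouse 4 and TTI-101-treated mouse 2 together (7.84%). For Rfx2 the log2 fold change ran from -0.28 to 0.078 and the difference of log2 CPM from -0.27 to 0.074, so its direction depended on the libraries used. Relative to Foxj1, the difference ran from -0.61 to 0.34 for Gmnc, from -0.36 to 0.38 for Rfx3, from -0.18 to 0.038 for Ccno, from -0.36 to 0.14 for Myb and from -0.063 to 0.30 for Ccdc78, and with ciliated cell markers as the reference that of Ccno was 0.019. The Mcidas ratio kept its sign, from -0.67 to -0.54, with an exact permutation p of 0.0571 without control mouse 2, 3 or 4.

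With a replicate block on the mouse number, 5 regulators were called at an unadjusted p under 0.05 in edgeR, Mcidas, Rfx3, Myb, Trp73 and Deup1, with a median log2 fold change of -0.63, and 3.59% of all genes tested were called lower. The labels share only the number between groups. The correlations of deviations in the 4 same-numbered pairs were 0.39, 0.08, 0.16 and 0.07. Control mouse 3 had nearly equal values with TTI-101-treated mouse 2 (0.1599) and mouse 3 (0.1585). Control mouse 4 had 0.167 with TTI-101-treated mouse 2. Total counts were highest for number 1 in both groups, at 26873509 in control and 25920509 in TTI-101. No pairing is named in the labels, so the main fit holds none. Whether mice of the same number shared a batch was not tested.

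At 13 to 90 counts for Mcidas and 29 to 134 for Gmnc, counting error adds to the spread between mice, and with 4 mice a group the standard errors of 0.24 to 0.49 on the log2 scale leave modest differences in either direction undetectable.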
